A study of Bos taurus with 16 samples.

Results

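Genes that mark monocytes and macrophages were examined in cells aspirated with the dominant ovarian follicle of dairy cows. The set was a named list of 10 genes, and 8 of them had counts: CSF1R, CD14, CD68, CD163, MSR1, TYROBP, AIF1 and CYBB. These 8 were drawn from 12429 genes with a symbol. No accession was matched to MRC1 or SPI1, which were not analysed here. For each gene the counts of all its RefSeq transcript accessions were summed and expressed as CPM, the gene's share of all transcript counts of the library, so a value is a share of a library and not an amount of RNA per cell.

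The study followed lactating Holstein cows after calving, with records of uterine disease, and its title concerns the follicle after that disease had resolved. The follicle was aspirated at 63 ± 3 days post partum during a synchronisation programme of GnRH and prostaglandin F2α, the cells were pelleted and washed, and poly(A) RNA was sequenced. There were 9 libraries labelled control and 7 labelled treatment, which share species, breed, stage and sampling. The labels do not say what treatment stands for, tie no library to a cow, and give the tissue as blood although the protocols describe granulosa cells. P-values therefore measure the spread between these libraries. Libraries are named below by label and replicate number, as in control 3.

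Monocytes are blood leukocytes that can enter tissues and become macrophages. Both cell types depend on the growth factor receptor CSF1R, take up particles and lipids through scavenger receptors, signal through small adaptor proteins and can make superoxide with an NADPH oxidase. The follicle wall around the granulosa layer is vascular and holds macrophages, whereas the granulosa cells themselves make estradiol and inhibin.

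The 16 libraries held between 8111862 and 14348753 counts, and 3 counts equalled 0.212 to 0.375 CPM. They fell into kinds that cut across the labels. INHA, the inhibin alpha subunit made by granulosa cells, lay between 1759 and 3041 CPM in 9 libraries, termed granulosa-rich (control 2, 3, 4, 7 and 8; treatment 4, 5, 6 and 7). In the other 7, termed leukocyte-rich (control 1, 5, 6 and 9; treatment 1, 2 and 3), INHA lay between 0.404 and 111 CPM, with the highest value in treatment 1. Treatment 7 was granulosa-rich by INHA but had the lowest CYP19A1 (aromatase) of that kind, 276 CPM against a median of 22085 CPM. FSHR, the receptor for follicle-stimulating hormone, was 110 to 543 CPM in granulosa-rich and 0.0844 to 16.9 CPM in leukocyte-rich libraries. PTPRC, the common leukocyte antigen CD45, was 6.35 to 98.0 CPM in granulosa-rich and 118 to 312 CPM in leukocyte-rich libraries. The kinds were set from these data and are not groups of the study, so values are set side by side with no test between them. In bulk RNA, fewer cells of a type and less RNA per cell cannot be told apart.

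All 8 genes were higher in every leukocyte-rich library than in any granulosa-rich library. Over the 13514 features with at least 10 counts in 1 library, 8.86% showed that pattern. The 8 genes together made up 6147 to 14013 CPM of a leukocyte-rich library, with a median of 9378 CPM. In granulosa-rich libraries they made up 185 to 1300 CPM, with a median of 380 CPM. The count of 8 was the same with TMM-scaled CPM and with DESeq2 size factors. It was also 8 without any 1 library, but that was fixed in advance, since removing a library cannot make separate ranges overlap.

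**Figure D1:**
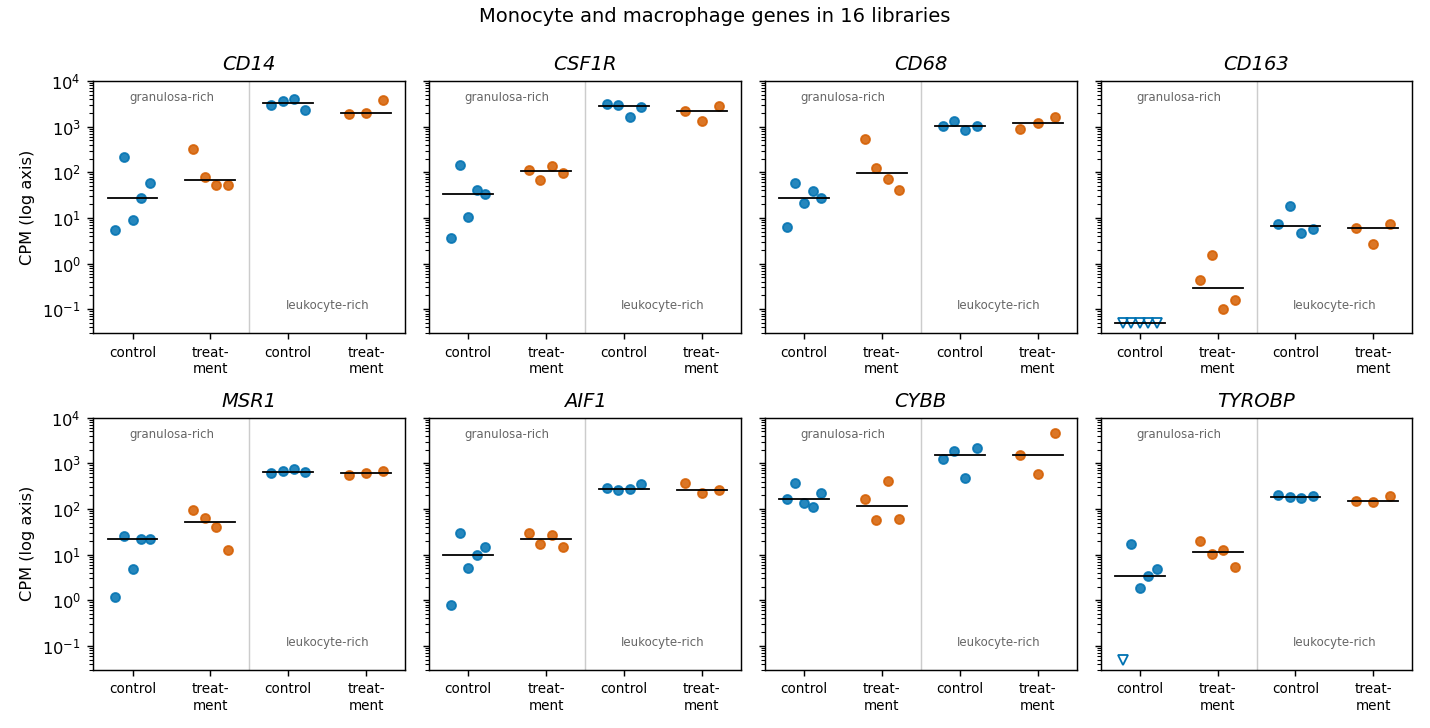
Level of each gene in CPM (log axis) in the 16 libraries, split by library kind and label; circles are libraries, horizontal bars are medians, and open triangles mark libraries with 0 counts. Each gene is higher in all 7 leukocyte-rich libraries than in any of the 9 granulosa-rich libraries, with the narrowest gap for CYBB, 488 against 412 CPM.

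Among the receptors, CSF1R, which binds the macrophage growth factors CSF1 and IL34, ranged from 1355 to 3081 CPM in leukocyte-rich libraries, with a median of 2652 CPM. Its range in granulosa-rich libraries was 3.57 to 143 CPM, with a median of 67.4 CPM. The ratio of these medians was 39.3, and its range when any 1 library was left out was 32.5 to 48.6. CD14, the co-receptor that hands bacterial lipopolysaccharide to TLR4, ranged from 1859 to 4031 CPM in leukocyte-rich libraries and from 5.32 to 332 CPM in granulosa-rich libraries, with medians of 2940 and 53.8 CPM and a ratio of 54.6. For both receptors control 2 was the lowest of all libraries, while control 3 and treatment 4 were among the 3 highest granulosa-rich libraries.

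The scavenger receptors and lysosomal proteins divided by abundance. CD68, a heavily glycosylated lysosomal protein of macrophages, was 836 to 1640 CPM in leukocyte-rich and 6.19 to 540 CPM in granulosa-rich libraries. Its ratio of medians was 25.3, and its upper granulosa-rich value came from treatment 4, where the next library stood at 123 CPM. MSR1, a scavenger receptor for modified lipoproteins, was 555 to 770 CPM against 1.19 to 94.2 CPM, with a ratio of 28.9 and the smallest spread of the 8 genes within leukocyte-rich libraries, where the highest was 1.39 times the lowest. CD163, the receptor that clears haemoglobin bound to haptoglobin, was scarce everywhere. It had 33 to 206 counts per leukocyte-rich library, or 2.70 to 18.5 CPM, and 0 to 15 counts per granulosa-rich library. Because most granulosa-rich values lay under 3 counts, no ratio is given for CD163.

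The cytoplasmic and adaptor proteins showed the same order. TYROBP, the adaptor that carries the signal of TREM and other activating receptors, was 140 to 203 CPM in leukocyte-rich libraries and 0 to 19.7 CPM in granulosa-rich libraries. Control 2 had 0 TYROBP counts, which at its depth allows up to 0.238 CPM (3 counts, counting error only). AIF1, the actin-bundling protein IBA1, was 224 to 369 CPM against 0.793 to 30.0 CPM, with a ratio of medians of 18.7.

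CYBB stood apart from the other 7. It encodes the catalytic subunit of the phagocyte NADPH oxidase. Its leukocyte-rich values were 488 to 4549 CPM and its granulosa-rich values 56.2 to 412 CPM, so its ratio of medians, 8.96, was the smallest of the 7 genes that have one. Within leukocyte-rich libraries CYBB had the widest spread of the 8 genes, the highest being 9.32 times the lowest. Its values there were 1222, 1880, 488 and 2176 CPM in control 1, 5, 6 and 9 and 1513, 586 and 4549 CPM in treatment 1, 2 and 3. Both labels held a low library, control 6 and treatment 2, and the high value of treatment 3 was unmatched by any other library.

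In granulosa-rich libraries 6 of the genes varied together, and CYBB followed them less closely. Each library was scaled to the leukocyte-rich median of each gene, and the 6 genes other than CYBB and CD163 were summarised by their median percentage. That median was 0.184% in control 2, 0.879% in control 4, 2.65% in control 7, 2.61% in control 8 and 6.59% in control 3. It was 11.1% in treatment 4, 5.96% in treatment 5, 6.53% in treatment 6 and 3.26% in treatment 7. CYBB on the same scale was between 3.72% and 27.2% in all 9. In control 2, where the 6 genes were nearly absent, CYBB stood at 11.2% of its leukocyte-rich median (2129 counts), which was 60.7 times the median of the 6. In treatment 5 it was 0.623 times that median, so the relation went the other way there.

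**Figure D2:**
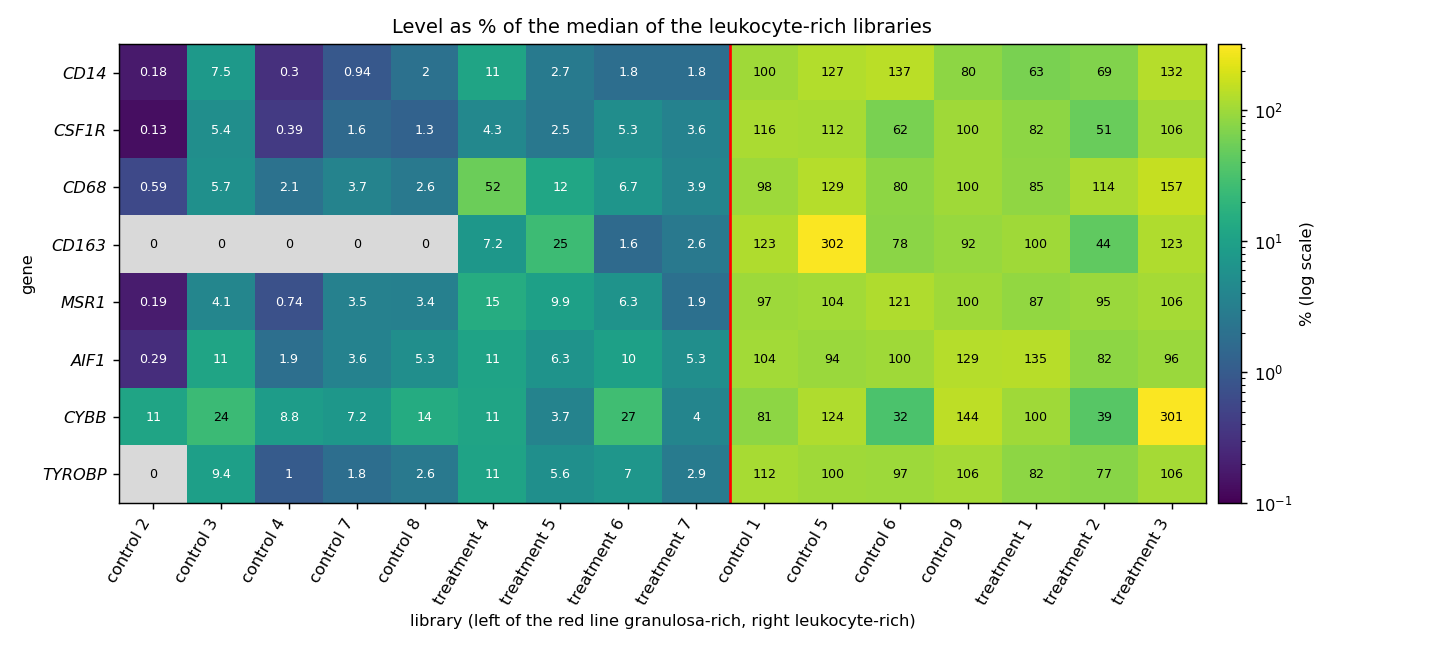
Each gene (rows) in each library (columns) as a percentage of that gene's median over the leukocyte-rich libraries; colour is on a log scale, grey marks 0 counts, and the red line separates granulosa-rich from leukocyte-rich libraries. CYBB stays at 11.2% in control 2, where CD14 is at 0.181% and CSF1R at 0.135%, and CD68 in treatment 4 reaches 51.7%.

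As a description, log2 CPM of each gene was correlated with the mean of the other genes, with CD163 left out of every such mean. Over the 9 granulosa-rich libraries Pearson's r was 0.85 to 0.97 for CSF1R, CD14, CD68, MSR1, TYROBP and AIF1. The value was 0.53 for CD163 and 0.11 for CYBB (Spearman's rho 0.23). Without the 2 libraries farthest from the median the CYBB value was 0.27. These points share library and depth, and no p-value is given. Over the 7 leukocyte-rich libraries the values ran from 0.04 for AIF1 to 0.81 for CSF1R, with CYBB at 0.70.

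Partners of CYBB in the oxidase did not share its level in control 2. CYBA, the membrane partner of CYBB, stood there at 1.93% of its leukocyte-rich median, and NCF1, the cytosolic organiser of the oxidase, at 0.104% (6 counts). The count ratio of CYBB to NCF1 was 355 in control 2, 4.21 to 36.3 in the other 8 granulosa-rich libraries and 1.92 to 9.35 in leukocyte-rich libraries. Per CSF1R count, CYBB ranged from 0.627 in treatment 7 to 47.3 in control 2 among granulosa-rich libraries. It ranged from 0.295 to 1.62 among leukocyte-rich libraries, so the kinds overlapped on this ratio.

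CSF1R and CD14 were also set against PTPRC, which most leukocytes carry. CSF1R per PTPRC was 0.562, 1.46, 0.539, 1.73 and 0.591 in granulosa-rich control 2, 3, 4, 7 and 8, and 4.72, 2.47, 1.43 and 2.47 in treatment 4 to 7. In leukocyte-rich libraries the ratio was 22.9, 10.1, 14.01 and 14.5 in control 1, 5, 6 and 9 and 9.65, 10.4 and 9.03 in treatment 1 to 3. The kinds did not overlap: the lowest leukocyte-rich ratio, 9.03, was above the highest granulosa-rich ratio, 4.72. CD14 per PTPRC did overlap, since treatment 4 at 13.7 lay within the leukocyte-rich range of 8.22 to 34.1, while the other 8 granulosa-rich libraries were at 0.465 to 2.96.

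Marker lists of other cell types were summed and set beside these ratios. The summed level of 13 T and NK cell markers was 354 to 1576 CPM in leukocyte-rich and 4.36 to 244 CPM in granulosa-rich libraries. The 6 B and plasma cell markers with counts summed to 26.7 to 391 CPM in leukocyte-rich libraries but reached 2723 CPM in granulosa-rich control 3. Neutrophil markers summed to 11.7 to 3855 against 1.73 to 178 CPM, and platelet markers to 28.5 to 2106 against 1.02 to 19.1 CPM. Among neutrophil markers in leukocyte-rich libraries, MMP9 reached 3785 CPM, S100A8 736 CPM, S100A12 44.0 CPM and S100A9 12.8 CPM. CXCR1, CAMP and MPO reached at most 2.58, 1.18 and 0.445 CPM there, and LTF had 0 counts. Of the platelet markers, PF4 reached 1752 CPM and SELP 354 CPM there, but ITGA2B only 0.147 CPM. Dendritic cell markers summed to 24.6 to 277 against 0.793 to 62.0 CPM, and mast cell markers to 1.33 to 18.1 against 0 to 3.07 CPM. Sums of erythroid (0.111 to 33.5 against 0.330 to 42.8 CPM), endothelial (8.03 to 173 against 3.36 to 135 CPM) and epithelial markers (28.1 to 2242 against 24.3 to 3843 CPM) overlapped between kinds, and granulosa markers summed to 180 to 5969 against 50572 to 157258 CPM. The part of these cells in the ratios to PTPRC was not tested.

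Ratios between the 8 genes varied more among granulosa-rich libraries. CD68 per CSF1R was 0.332 to 0.879 in leukocyte-rich libraries and 0.415 to 4.72 in granulosa-rich libraries, with the highest value in treatment 4. MSR1 per CSF1R was 0.200 to 0.465 against 0.130 to 0.938, and the upper values were those of treatment 5 and treatment 4. CD14 per CSF1R was 0.852 to 2.43 against 0.385 to 2.90, with treatment 4 again highest. Treatment 4 was thus rich in CD68, MSR1 and CD14 relative to CSF1R, whereas treatment 6 had little CD14 per CSF1R.

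**Figure D3:**
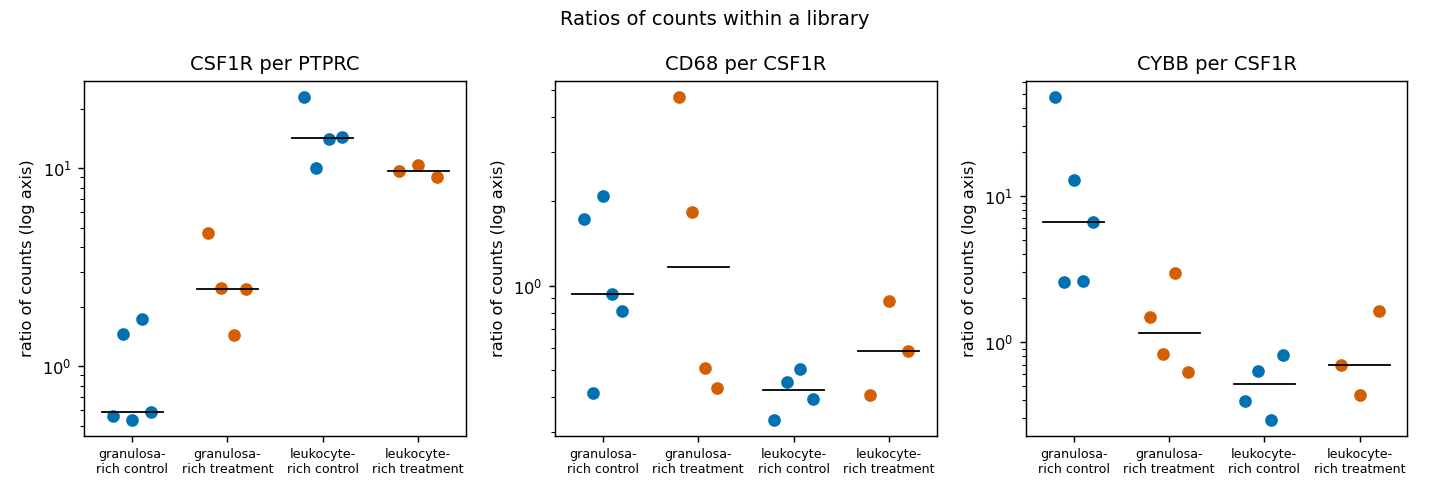
Ratios of counts within each library (log axes) for CSF1R per PTPRC, CD68 per CSF1R and CYBB per CSF1R, by library kind and label; points are libraries and bars are medians. The kinds separate on CSF1R per PTPRC, with 4.72 as the highest granulosa-rich and 9.03 as the lowest leukocyte-rich value, and control 2 reaches 47.3 for CYBB per CSF1R.

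The spread among libraries of 1 kind was unequal too. In leukocyte-rich libraries the median SD of log2 CPM was 0.40 over the 8 genes, beside 0.46 over all 9912 features tested and 0.24 over the 1521 most abundant of these (mean log2 CPM from 7 upwards). For granulosa-rich libraries it was 1.82 over the 7 genes that passed the filter on low counts, beside 0.93 over all 9272 features tested and 0.44 over the 1280 abundant ones by the same limit. CD163 did not pass that filter. Of the 7 that did, all but CYBB lay below the limit for abundant features there, with medians from 5.27 CPM (TYROBP) to 67.4 CPM (CSF1R).

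Genes that work with the 8 were read from companion lists. All 6 oxidase partners of CYBB were higher in every leukocyte-rich than in any granulosa-rich library. The same held for 6 of 9 genes listed as TYROBP partners and Fc receptors, a list that also holds signalling proteins, and for 6 of 7 partners of CD14. It held for 4 of 7 myeloid transcription factors, 2 of 4 scavenger receptors and 4 of 10 resident macrophage genes. For monocyte genes it held for 3 of 6, and for CSF1R ligands and myeloid growth factor receptors (CSF1 and CSF2RB) for 0 of 2. Each list was counted over its members with at least 10 counts in 1 library. SIRPA, the inhibitory receptor for CD47, was 901 to 1673 CPM against 3.33 to 176 CPM. ITGAM, the integrin CD11b, was 403 to 1189 CPM against 0.555 to 140 CPM, and MAF, a macrophage transcription factor, 252 to 628 CPM against 8.81 to 82.5 CPM. VAV1, an exchange factor for Rac, was 379 to 439 CPM against 0.793 to 78.2 CPM, and CEBPA, a myeloid transcription factor, 76.5 to 363 CPM against 0.317 to 20.2 CPM. MYD88, an adaptor of Toll-like receptors, was 291 to 464 CPM against 31.0 to 150 CPM. MERTK, a receptor for dying cells, was 334 to 551 CPM against 41.5 to 248 CPM, and FCN1, a ficolin of monocytes, 10.9 to 62.1 CPM against 0.159 to 7.69 CPM. OLR1, a receptor for oxidised lipoprotein, was 3.39 to 51.6 CPM against 0 to 2.59 CPM. Some genes linked to particular macrophage or monocyte states overlapped between kinds. LYZ, lysozyme, was 22.9 to 3259 CPM in leukocyte-rich and 3.81 to 267 CPM in granulosa-rich libraries. CD36, a fatty acid and scavenger receptor, was 6.33 to 132 CPM against 0 to 33.1 CPM, and NR1H3, a sterol-sensing nuclear receptor, 3.23 to 9.995 CPM against 0 to 3.41 CPM. CSF1, a ligand of CSF1R, was 2.06 to 11.6 CPM against 0 to 2.75 CPM, and CSF2RB, a cytokine receptor subunit, 1.499 to 24.9 CPM against 0 to 1.51 CPM. CD209, a lectin receptor, was 7.37 to 246 CPM against 0.793 to 96.1 CPM. LYVE1, a hyaluronan receptor of some resident macrophages, was 20.1 to 556 CPM against 0.397 to 98.1 CPM. HMOX1, haem oxygenase, did not overlap and stood at 6477 CPM in treatment 1 beside 580 to 1137 CPM in the other 6 leukocyte-rich libraries.

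Outside the lists, the genes whose log2 CPM most resembled the mean of the 8 over granulosa-rich libraries were CTSH, a lysosomal protease (r = 0.99), TGFBI, a secreted matrix protein (0.97), C3AR1, the receptor for complement fragment C3a (0.97), SCIN, an actin-severing protein (0.96), and CFP, properdin (0.96). They were ranked among 6146 genes whose median r was 0.15. Over leukocyte-rich libraries the closest of 6482 genes were CLIC2 (0.99), FGL2 (0.98), VSIR (0.98), DNAAF2 (0.98) and TAB2 (0.97), beside a median r of -0.13. The top 5 of each kind were different genes, and with 9 and 7 libraries these values describe likeness and carry no p-value.

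Several of the genes had more than 1 accession, and for CD14, MSR1 and TYROBP the split of counts varied between libraries. One TYROBP transcript took 5.91% of counts in treatment 3 (exact 95% interval 4.98 to 6.96%) and 10.0% in treatment 2 (8.65 to 11.6%). These were the lowest and highest leukocyte-rich shares. The shares of CD163, on few counts, are not given. CD14 counts lay almost wholly on the predicted transcript. The curated transcript took 1.83% in control 1 (exact Clopper-Pearson 95% interval 1.70 to 1.97%), 2.30% in control 9 (2.09 to 2.53%), 4.41% in treatment 3 (4.22 to 4.60%) and 3.83% in granulosa-rich control 8 (2.39 to 5.80%). In the other 12 libraries it took at most 0.294%, for example 6 of 49924 counts in control 6. Control 2, 4 and 7 and treatment 6 had too few CD14 counts to place them under 1%, with 0 of 67 (exact upper bound 5.36%), 0 of 126 (2.89%), 1 of 340 (1.63%) and 1 of 543 (1.02%). Measured shares above 1% occurred in both kinds and under both labels.

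MSR1 counts split more evenly. One curated transcript took 31.8 to 44.6% of MSR1 counts in leukocyte-rich libraries. Among granulosa-rich libraries the share ran from 0 of 67 counts in control 4 (up to 4.48% at 3 counts, exact upper bound 5.36%) through 13.6% in control 7 (9.76 to 18.3%) to 49.4% in treatment 7 (41.3 to 57.4%). These intervals cover counting error only. How reads that fit more than 1 transcript were assigned is not given in the sources used here.

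**Figure D4:**
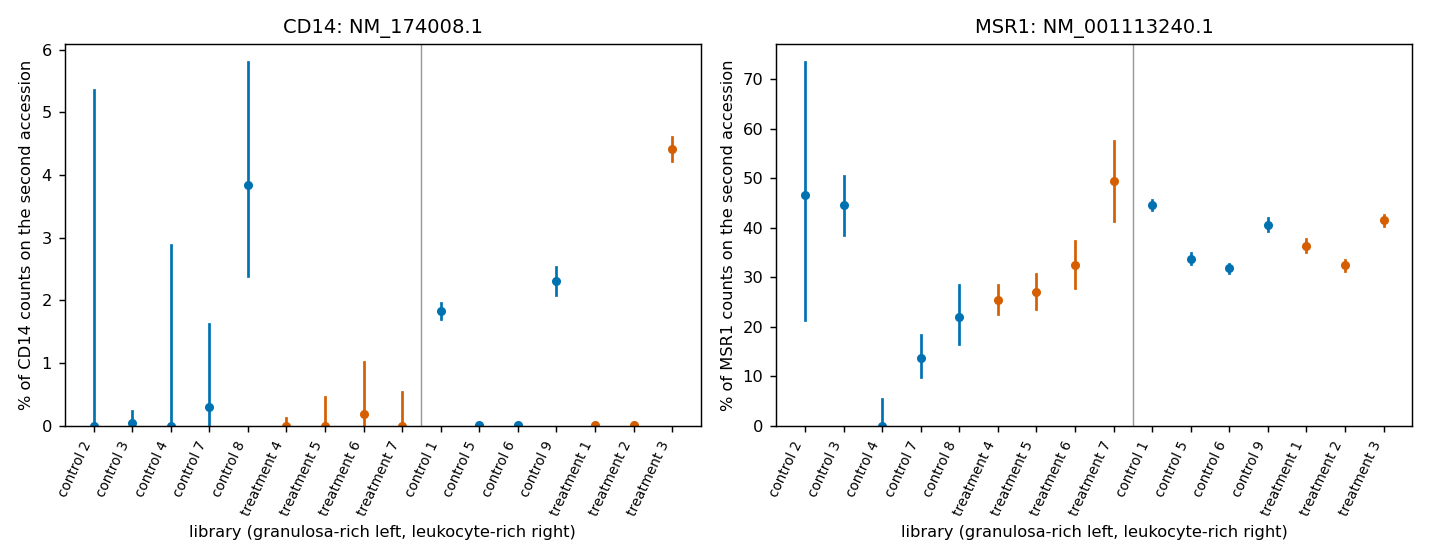
Share of CD14 counts (left) and MSR1 counts (right) on 1 of the gene's 2 accessions in each library, in percent; points are shares, vertical lines exact 95% binomial intervals, blue control and orange treatment, with granulosa-rich libraries left of the grey line. For CD14, control 1, control 9, treatment 3 and control 8 stand above 1%, and for MSR1 control 4 has 0 of 67 counts.

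The study's labels were compared first over all 16 libraries. None of the 8 genes passed edgeR's quasi-likelihood test of treatment against control, with an adjusted p of 1.0 for each. The fit called 0 of 9653 features (0%), with 163 at an unadjusted p under 0.05, none of them among the 8, and DESeq2 and limma-voom called 0 features too. CYBB had a log2 fold change (treatment over control) of 0.51 ± 0.86 (SE) and CD68 0.40 ± 1.01, and the other 6 lay between -0.56 and -0.03. The median over the 8 was -0.13, beside 0.01 over all features tested. When library kind was added to the model all 8 were above 0, with a median of 0.51 and no call. Scaling by library size alone put 62.5% of features above 0 instead of 52.1%, with a median of 0.09, and left 2 of the 8 genes above 0.

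Within granulosa-rich libraries, 6 of the 7 genes tested were higher in treatment than in control and none passed the test. By edgeR 0 of 9272 features were called (0%), with 433 at an unadjusted p under 0.05, of which 1 was among the 7 genes. DESeq2 called 26 features, none of the 7, and limma-voom called 0. The median log2 fold change of the 7 was 1.03, beside 0.04 over all features tested. It was 1.85 without control 3 and 1.99 with limma-voom. With library size alone as scaling 64.7% of features were above 0 instead of 52.9% and the median of all features was 0.19, while the same count of 6 of the 7 genes was above 0 with a median of 1.15.

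CD68 had the largest fitted difference of the 7. It was 6.19, 59.2, 21.6, 39.1 and 27.1 CPM in control 2, 3, 4, 7 and 8 and 540, 123, 70.5 and 41.3 CPM in treatment 4 to 7. The lowest treatment library lay under control 3, so the groups overlapped. Its log2 fold change was 2.40 ± 0.78 (edgeR unadjusted p = 0.0107, adjusted p = 0.983). Without treatment 4 it was 1.26.

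For CD14 the libraries were 5.32, 221, 8.91, 27.6 and 59.1 CPM in control and 332, 80.5, 53.7 and 53.8 CPM in treatment, in the same order. Control 3 lay above 3 of the 4 treatment libraries. The log2 fold change was 0.94 ± 0.93, and it moved to 0.02 without treatment 4 and to 2.09 without control 3. CSF1R was 3.57, 143, 10.3, 41.8 and 33.3 CPM in control and 115, 67.4, 139 and 95.7 CPM in treatment. Every treatment library exceeded 4 of the 5 controls, and control 3 exceeded every treatment library. Its log2 fold change was 1.03 ± 0.77, and 1.85 without control 3.

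MSR1 had a log2 fold change of 1.60 ± 0.82, TYROBP 1.06 ± 1.03 and AIF1 0.74 ± 0.72. Leaving out control 3 moved TYROBP to 1.96 and AIF1 to 1.25. CYBB was the exception: it was 169, 368, 133, 109 and 219 CPM in control and 170, 56.2, 412 and 60.0 CPM in treatment. Both the highest and the lowest CYBB values were treatment libraries, and its log2 fold change was -0.38 ± 0.52, or -1.19 without treatment 6 and -0.10 without treatment 7.

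CD163 had 0 counts in all 5 granulosa-rich controls and 4, 15, 1 and 2 counts in treatment 4 to 7. The groups did not overlap, as was the case, with treatment above, for 174 of 12672 features (1.37%). Treatment 6 and treatment 7 were under the floor of 3 counts, and CD163 fell below the filter of the test, so no fold change is given.

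**Figure D5:**
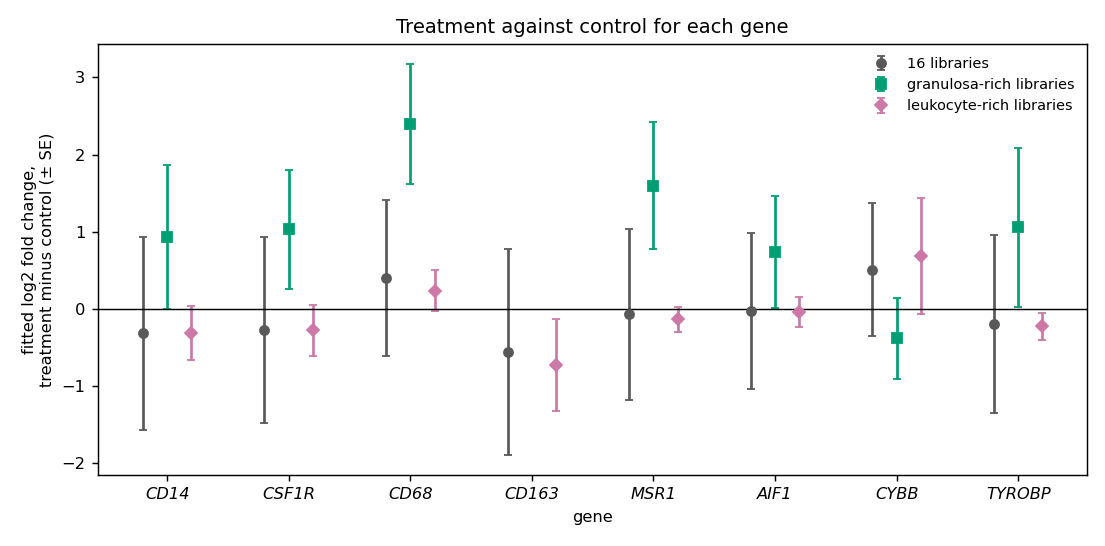
Fitted log2 fold change of treatment over control (edgeR, ± SE) for each gene over 16 libraries (grey circles), granulosa-rich libraries (green squares) and leukocyte-rich libraries (pink diamonds); CD163 was not tested in granulosa-rich libraries. The green values lie above 0 except for CYBB at -0.38, and no value passed the adjusted threshold.

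Companion genes in granulosa-rich libraries were mostly higher in treatment, again with no call. Higher values were found for 5 of 5 TYROBP partners and Fc receptors tested, 6 of 6 CD14 partners, 4 of 4 transcription factors, 7 of 8 resident macrophage genes, 3 of 5 oxidase partners, 1 of 2 scavenger receptors, 1 of 3 monocyte genes and 1 of 1 growth factor gene. The largest named differences were FOLR2, a folate receptor of resident macrophages, at 2.04 ± 0.78, TLR2 at 2.03 ± 1.38, LYVE1 at 1.87 ± 0.84 and FCGR1A, the high-affinity IgG receptor, at 1.56 ± 0.76 (edgeR adjusted p = 0.983 for each). S100A4, a calcium-binding protein of monocytes among other cells, was at -0.91 ± 0.98, NCF1 at -0.73 ± 1.13 and LYZ at -0.12 ± 0.98.

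General leukocyte markers were also higher in these libraries. All 7 pan-leukocyte markers tested were higher in treatment, with a median of 0.27, and their sum was 15.2 to 1066 CPM in control and 256 to 899 CPM in treatment. T and NK cell markers were higher for 8 of 9, with sums of 4.36 to 244 and 13.2 to 206 CPM. B and plasma cell markers were higher for 3 of 5, with sums of 5.32 to 2723 and 18.3 to 398 CPM. Neutrophil markers were higher for 1 of 2, with sums of 2.86 to 113 and 1.73 to 178 CPM. Theca and stroma markers were lower in treatment for 4 of 4, with a median of -1.87 and sums of 356 to 1694 and 83.7 to 832 CPM. The 4 were CYP17A1, COL1A1, COL3A1 and DCN. INSL3, counted here with the granulosa markers, was higher in treatment at 0.40 ± 0.53. Granulosa markers were lower for 10 of 16, with sums of 107223 to 152926 and 50572 to 157258 CPM, the lowest in treatment 7, and epithelial markers were lower for 5 of 7, with sums of 24.3 to 3843 and 52.8 to 2285 CPM. None was called, PTPRC was above 0 in every library, and the part of these cells in the differences was not tested.

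Within leukocyte-rich libraries 2 of the 8 genes were higher and 6 lower in treatment, and none passed the test. By edgeR 0 of 9912 features were called (0%), with 259 at an unadjusted p under 0.05, none among the 8, and DESeq2 and limma-voom called 0. The adjusted p was 1.0 for each of the 8. Log2 fold changes were 0.68 ± 0.75 for CYBB, 0.24 ± 0.27 for CD68, -0.03 ± 0.19 for AIF1, -0.13 ± 0.16 for MSR1, -0.22 ± 0.17 for TYROBP, -0.27 ± 0.33 for CSF1R, -0.31 ± 0.35 for CD14 and -0.72 ± 0.59 for CD163. Their median was -0.18, beside 0.01 over all features tested.

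The labels overlapped for all 8 genes in this kind. Treatment lay wholly above control for 2.22% of 11617 features, and the labels did not overlap, in either direction, for 3.99%. CD14, for example, was 2940, 3724, 4031 and 2365 CPM in control 1, 5, 6 and 9 and 1859, 2042 and 3873 CPM in treatment 1, 2 and 3. Treatment 1 and 2 were lower than all 4 controls, and treatment 3 exceeded 3 of them. The higher fitted value of CYBB and CD68 turned with 1 library: without treatment 3 they were -0.51 and -0.09.

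Markers of other cell types had unequal levels under the labels in this kind. Granulosa markers were higher in treatment for 12 of 14 tested, none called, with sums of 210 to 604 CPM in control and 180 to 5969 CPM in treatment, the highest in treatment 1. Theca and stroma markers were higher for 6 of 6, with sums of 350 to 1105 and 100 to 4968 CPM. Neutrophil markers were higher for 3 of 5, with sums of 11.7 to 3855 and 911 to 1412 CPM. T and NK cell markers were higher for 10 of 12, with sums of 354 to 1469 and 604 to 1576 CPM, and epithelial markers for 6 of 7, with sums of 28.1 to 666 and 105 to 2242 CPM. B and plasma cell markers were lower for 5 of 6, with a median of -1.01 and sums of 26.7 to 391 and 40.7 to 93.0 CPM. None of these markers was called, and their part in the values of the 8 genes was not tested.

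The difference between the label effects of the kinds was tested directly. CD163 was left out here after its values were seen, since its fitted effect in granulosa-rich libraries is set by controls with 0 counts. The fitted effect was larger in granulosa-rich libraries for 6 of the other 7 genes and smaller for CYBB. The median difference of the 7 was 1.33 on the log2 scale, beside 0.06 over all features tested. It was 2.08 without control 3 and 2.00 with limma-voom, and without treatment 3 all 7 genes, CYBB included, were above 0. None passed edgeR's test, which called 0 of 11468 features (0%), with 608 at an unadjusted p under 0.05, of which CD68 was 1. The difference was 2.18 ± 1.00 for CD68 (adjusted p = 0.911), 1.76 ± 1.01 for MSR1 (adjusted p = 0.924) and -1.06 ± 0.93 for CYBB (adjusted p = 0.949). DESeq2 called 31 features, CD163 among them but none of the 7 genes, and limma-voom called 0.

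Across the 4 combinations of kind and label, the median CPM of CSF1R, from the highest, was 2812 in leukocyte-rich control, 2182 in leukocyte-rich treatment, 105 in granulosa-rich treatment and 33.3 in granulosa-rich control. CD14 (3332, 2042, 67.2 and 27.6 CPM), MSR1 (652, 607, 51.8 and 21.6 CPM), AIF1 (279, 261, 22.2 and 9.73 CPM) and TYROBP (187, 148, 11.4 and 3.32 CPM) had the same order. For CD68 the leukocyte-rich medians stood the other way, 1035 CPM in control and 1191 CPM in treatment. For CYBB the granulosa-rich medians did, 169 CPM in control and 115 CPM in treatment. In each case the neighbouring labels within a kind overlapped, and only the step between the kinds did not.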

How the data were processed

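RNA of 16 libraries was measured. The deposited values are whole-number counts per RefSeq accession. The authors trimmed, aligned and handled reads with cutadapt, Bowtie2 and SAMtools, per the submitters' processing notes. Not given in the sources used here are their versions, the reference, the counting step and how multiply mapping reads were treated. The kit, per the labels' protocols, does not mark strand, so reads of overlapping or antisense genes cannot be told apart; in RefSeq's table AIF1 overlaps NCR3, which had 1 count in all, and CYBB overlaps 1 long noncoding RNA, for which no counts were matched.

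Accessions were matched to symbols through RefSeq's gene table (assembly ARS-UCD2.0) and counts were summed per gene. Of 27173 transcript accessions 18973 matched, with 95.1% of counts. Unmatched transcripts (3.61%) were kept as features of their own, and 133 genomic records (1.27%) were left out. CPM used the transcript total of each library, with a prior count of 1 for log2 values. Libraries above 1000 CPM of INHA were termed granulosa-rich and those below 200 leukocyte-rich. Groups follow the titles. Sequences, coordinates and promoter motifs of the genes were not analysed here.

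Treatment was tested against control with edgeR 4.0.16 (R 4.3.3): TMM, filterByExpr, robust quasi-likelihood fit, Benjamini-Hochberg over all features tested, adjusted p under 0.05. The fits ran over 16 libraries, within each kind, and for the difference of the label effect between kinds. TMM factors ran from 0.614 to 1.14 over 16 libraries and from 0.687 to 1.18 in granulosa-rich libraries. The test was tested on simulated data. All simulated features had the same dispersion, so this does not show what the fits could detect at the spread of these libraries. Alternatives were DESeq2 1.42.0, limma-voom (limma 3.58.1), DESeq2 size factors, library size alone, no filter, the kind as a covariate, a replicate block, both kinds fitted together, and leaving out each library. Depth was 8111862 to 14348753 counts, and 3 counts were taken as the floor.

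The 8 genes, the companion and marker lists and the tests were chosen with earlier results of these data known. Genes named are the listed genes; INHA, CYP19A1, FSHR and PTPRC; from each companion list the 2 with the highest leukocyte-rich median and the 2 with the lowest p in granulosa-rich libraries; and per kind the 5 outside the lists whose log2 CPM (mean of at least 1) correlated best with the mean of the 8. NCR3 and the noncoding RNA are named only as neighbours, and members of the marker lists only to show what a list holds.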

Additional observations from a re-analysis of the deposited data

Results flagged for a closer look

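In 23 groups of 4 or 5 libraries, the highest and lowest library was compared with its nearest neighbour relative to the group's range. Each group was a gene within a kind and label. Leukocyte-rich treatment, with 3 libraries, and whole kinds were not compared in this way. In 5 of the 23 groups 1 library lay far from the others, and for independent groups chance alone gives about 1 in 20. All 5 were granulosa-rich, from control 3 or treatment 4, and in genes that varied together there. The groups are thus not independent, and the rate of 1 in 20 cannot be set against the 5. Control 3 stood above the other granulosa-rich controls for CD14 (221 CPM), CSF1R (143 CPM) and TYROBP (17.0 CPM). Treatment 4 stood above the other granulosa-rich treatment libraries for CD14 (332 CPM) and CD68 (540 CPM). Control 3 also had the highest sum of pan-leukocyte markers (1066 CPM) and of B and plasma cell markers (2723 CPM) among granulosa-rich libraries, and the part of those cells was not tested. In treatment 4 the pan-leukocyte sum was 813 CPM and the B and plasma cell sum 27.6 CPM.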

How the results depend on the processing

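Over 16 libraries the direction of the label difference depended on the fit, with no call under any alternative run. With limma-voom the log2 fold changes were 0.61 for CD14, 0.86 for CSF1R, 1.20 for CD163, 0.96 for MSR1, 0.69 for AIF1, 1.15 for TYROBP and -0.29 for CYBB, each opposite in sign to edgeR's. With kind as a covariate they were 0.43 for CD14, 0.50 for CSF1R, 1.40 for CD163, 0.88 for MSR1, 0.41 for AIF1 and 0.52 for TYROBP. With the replicate block they were 0.89 for CD14, 0.85 for CSF1R, 1.25 for CD163, 0.61 for MSR1, 0.64 for AIF1, 0.63 for TYROBP and -0.074 for CYBB. Leaving out 1 library at a time gave ranges of -1.06 to 0.052 (CD14), -0.88 to 0.076 (CSF1R), -0.080 to 0.73 (CD68), -1.10 to 0.27 (CD163), -0.47 to 0.24 (MSR1), -0.49 to 0.27 (AIF1), -0.75 to 0.88 (CYBB) and -0.68 to 0.088 (TYROBP). The cause was not tested.

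Within granulosa-rich libraries 0 of 49 values under other settings and 0 of 63 with a library left out reversed. The 49 include the replicate block, which in this kind rests on replicate numbers 4 and 7 alone. Within leukocyte-rich libraries 0 of 48 and 4 of 56 reversed: the left-out ranges were -0.089 to 0.45 for CD68, -0.24 to 0.13 for AIF1 and -0.51 to 1.15 for CYBB. DESeq2 called 26 features in granulosa-rich libraries and 31 in the difference between kinds, 1 of them a listed gene (CD163), where edgeR called 0; the cause was not tested. Library size alone moved the median of all features in the difference between kinds from 0.06 to 0.19.

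Control and treatment share replicate numbers 1 to 7. Deviations of same-numbered libraries correlated between -0.60 and 0.60, above 0 only where both were of 1 kind. Of the 7 numbers, 0 correlated best with their own number. Where the kinds differ, that difference can hide a pairing, so the check cannot decide it. The labels state no pairing, and the numbers were not taken as pairs. The replicate block left 0 calls over 16 libraries (51 features at an unadjusted p under 0.05) and 0 in granulosa-rich libraries (1022). In granulosa-rich libraries only numbers 4 and 7 occur under both labels. The label difference of that block fit therefore rests on these numbers alone, and it is a weak check. Leukocyte-rich libraries share only 1 number, so no paired analysis was possible there.

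CD163 in granulosa-rich libraries and TYROBP in control 2 lie at or near the floor of 3 counts and are limited by depth.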
